A study of Mus musculus with 2 samples.

Results

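Neutrophils reach injured tissue by following a small family of CXC chemokines, and the messenger RNAs of 4 of these ligands (Cxcl1, Cxcl2, Cxcl3 and Cxcl5) and of their shared receptor Cxcr2 were followed here through the cells of injured mouse carotid arteries. The 5 genes were taken by symbol out of 32285 genes in the count tables, and all 5 were detected in both libraries. The EC-Cx43-KO library came from CDH5 Cre+ Cx43fl/fl mice, in which an inducible Cre under the endothelial Cdh5 promoter is meant to delete connexin 43 (gene Gja1) in endothelial cells (EC). The control library came from CDH5 Cre- Cx43fl/fl mice, which carry the same floxed alleles and no Cre. All arteries were taken 18 h after a temporary ligation that injures the endothelium, and the protocol says that arteries of one condition were combined before sequencing, whereas the design text speaks of a single control mouse. Neither the number of animals per library nor their age, sex or strain is given in the sources used here. Each group had 1 library, so every difference below is a difference between 2 libraries with no replicate behind it, no test was possible, and the intervals (95%, exact) cover counting error only.

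Cxcl1, Cxcl2, Cxcl3 and Cxcl5 are secreted proteins that bind Cxcr2, a G-protein-coupled receptor best known from neutrophils, and that are held on proteoglycans of the vessel wall as a track for the cells. Their genes are switched on rapidly by NF-kB downstream of IL-1, TNF and Toll-like receptors, and their messenger RNAs are short-lived because AU-rich stretches near their 3′ ends are recognised by decay factors such as Zfp36 (tristetraprolin). Stromal cells, endothelium, macrophages and neutrophils themselves are all known sources of one or another of these ligands. Cxcr2 on neutrophils drives their release from bone marrow and their arrest and migration at inflamed vessels.

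The 4 ligand genes lie together on chromosome 5 (GRCm38, all on the plus strand). Cxcl5 lies at chr5:90759360-90761624, Cxcl3 at chr5:90786103-90789600, Cxcl1 at chr5:90891241-90893115 and Cxcl2 at chr5:90903871-90905938, so that the span from the start of Cxcl5 to the end of Cxcl2 is 146579 bp. The gap between Cxcl1 and Cxcl2 is 10755 bp. Ppbp and Pf4, which encode platelet chemokines, lie between Cxcl5 and Cxcl3, and Cxcl15 lies between Cxcl3 and Cxcl1. Cxcr2 is on chromosome 1 at chr1:74153989-74161246. Despite this common address, Cxcl1 and Cxcl5 were mainly counted in fibroblast-like cells and Cxcl2 and Cxcl3 in myeloid cells (below), so the sequences of both kinds are shown. The promoter table from RefSeq (GRCm38.p6) held 4 of the 5 genes, all but Cxcl5. In the 250 bases before the start, Cxcl1, Cxcl2 and Cxcl3 each held the same run of 11 bases, which matches the kappa B consensus on both strands, the 2 matches overlapping. The run, in capitals below, began 67, 69 and 73 bases before the earliest annotated start of Cxcl1, Cxcl2 and Cxcl3. The windows are chr5:90891165-90891194, chr5:90903793-90903822 and chr5:90786019-90786048, all on the plus strand.
Cxcl1 promoter: ctgtactccGGGAATTTCCCtggcccggag
Cxcl2 promoter: ctgagctcaGGGAATTTCCCtggtccccgg
Cxcl3 promoter: agctgcgggGGGAATTTCCCcagcccgggc
The same search found a match in 3.9% of 32851 promoter windows of this length, and none in that of Cxcr2. These are letter matches, with no measurement of binding here.

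The AU-rich stretches of the ligand messenger RNAs are shown because they are a well known feature of these ligands, and the receptor, with an ordinary density of them, is given for contrast. Each line gives the 30 bases of the annotated 3′ UTR (GENCODE, GRCm38) with most copies of ATTTA, which are in capitals.
Cxcl1: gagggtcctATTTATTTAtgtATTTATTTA
Cxcl2: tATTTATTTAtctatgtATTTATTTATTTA
Cxcl3: caagatggcatcttATTTAatgtttATTTA
Cxcl5: agcttcctgctcatctcacaagtgtATTTA
The whole 3′ UTR of Cxcl1 had 7 copies in 592 bases, or 11.8 per kb, a density reached by 0.5% of 19913 genes. That of Cxcl2 had 11 copies in 1494 bases (7.4 per kb, reached by 2.5% of genes) and that of Cxcl3 had 5 in 645 bases (7.8 per kb, reached by 2.1%). Cxcl5 had 5 copies in 1111 bases (4.5 per kb, reached by 9.8%), and Cxcr2 had 2 in 1818 bases (1.1 per kb, reached by 54.9%). The median gene had 1.3 per kb. Cxcl2 and Cxcl3 are near copies of each other in part: 61 of the 1810 stretches of 50 bases in the Cxcl2 transcript (3.37%) also occur in Cxcl3, and the longest shared run is 110 bases. That run lies 1687 bases from the 3′ end of Cxcl2 and 850 bases from that of Cxcl3, while the libraries count 3′ ends, so reads from the ends themselves are not shared. No stretch of 50 bases was shared by any other pair of ligands.

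The EC-Cx43-KO library held 54392831 UMIs (unique molecular identifiers, each marking 1 captured RNA molecule) in 8315 barcodes, and the control library 48862850 UMIs in 7298 barcodes, and the median barcode had 4590 and 4483 of them. The filters left 7236 EC-Cx43-KO and 6376 control cells, and 12 of their barcodes occurred in both libraries. Both libraries held cells of both sexes. Xist was at 270.6 CPM (the count scaled to 1000000 UMIs) in the EC-Cx43-KO and 367.5 CPM in the control library, and 4 Y-linked genes together were at 127.0 and 93.9 CPM. The sexes were therefore mixed in unequal parts, and the values are given by sex where they bear on a result. Cells of the 2 sexes come from different animals, so sex and animal cannot be told apart in any of these splits. In EC-like cells Gja1 was at 34.7 CPM (146 UMIs) in the EC-Cx43-KO and 22.7 CPM (91 UMIs) in the control library. Whether the counted 3′ end of Gja1 lies in the deleted part is not given in the sources used here, so these counts check nothing and the library is called EC-Cx43-KO by its label. Cell classes were named from marker genes. Fibroblast-like cells (1583 in the EC-Cx43-KO and 1372 in the control library) had 12 of 12 fibroblast markers in at least 10% of cells in both libraries, neutrophil-like cells (1284 and 1097) 8 of 11 neutrophil markers in both, and monocyte/macrophage-like cells (1827 and 1446) 14 and 13 of 14. EC-like cells (579 and 478) had 12 and 11 of 13 endothelial markers. A cluster led by Fabp5, Ppbp, Pf4 and Hmox1 (462 and 759 cells) also carried 14 of 14 macrophage markers, but had 2 platelet markers against 1 macrophage marker among its 10 leading genes and is kept apart as the Fabp5/Hmox1-led cluster. Smooth muscle (SMC)-like cells numbered 545 and 413, dendritic-like cells 232 and 235, T/NK-like cells 148 and 106, and B-cell-like cells 167 and 100. Fewer cells of a type and less RNA per cell cannot be told apart in library totals, so levels are given as CPM of the UMIs of a class.

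The ligands divided into a fibroblast pair and a myeloid pair, and the receptor belonged to neutrophils. Fibroblast-like cells held 81.8% of all Cxcl1 UMIs in the EC-Cx43-KO and 85.4% in the control library, and 86.0% and 89.4% of all Cxcl5 UMIs. Neutrophil-like cells held the largest part of Cxcl2 among the named classes, 44.5% in the EC-Cx43-KO and 43.0% in the control library, and monocyte/macrophage-like cells held 35.3% and 29.3%. That class of monocytes and macrophages led for Cxcl3, with 55.0% and 43.3%, and the Fabp5/Hmox1-led cluster came next with 25.6% and 37.1%. The lead of neutrophil-like cells for Cxcl2 depended on keeping that cluster apart. In the EC-Cx43-KO library they had 40323 Cxcl2 UMIs, against 32011 in monocyte/macrophage-like cells and 10654 in the cluster. In the control library the counts were 21747, 14824 and 8521. In both libraries monocyte/macrophage-like cells and the cluster summed to more Cxcl2 UMIs than neutrophil-like cells. Cxcr2 was counted almost wholly in neutrophil-like cells, at 97.1% in both libraries. EC-like cells held 2.86% and 3.11% of Cxcl1 UMIs, and under 1% of each other member in both libraries.

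**Figure D1:**
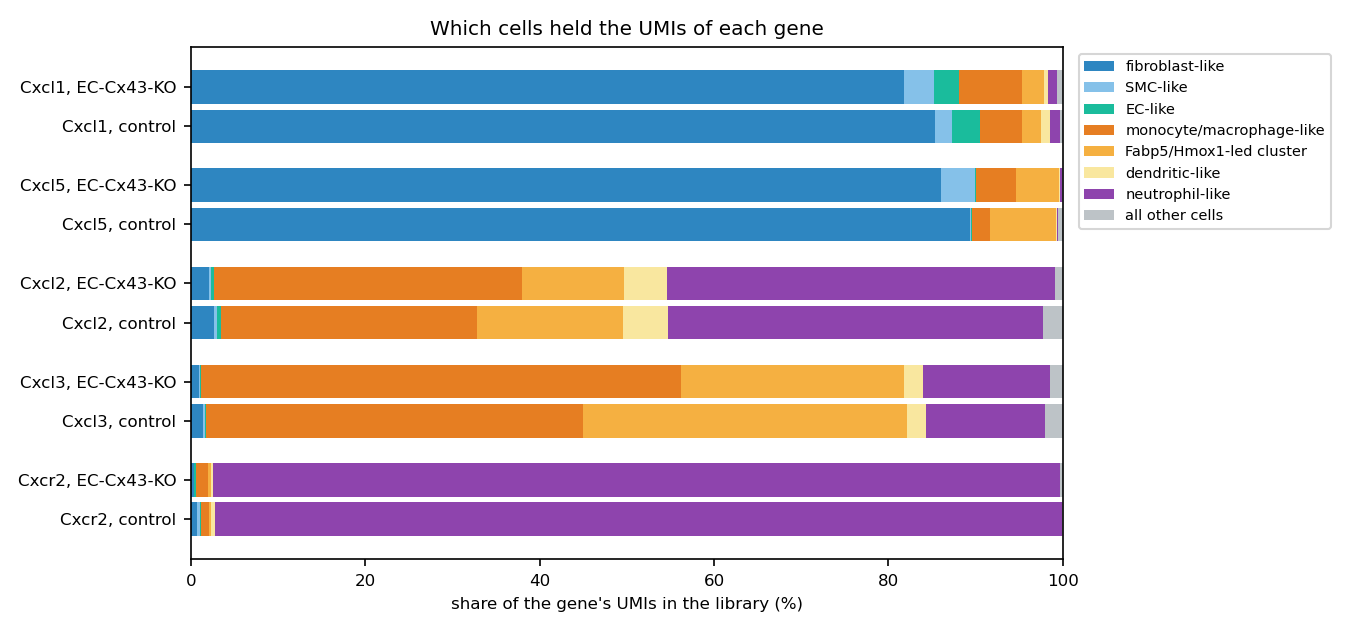
Share of each gene's UMIs (%, horizontal axis) by cell class, with 1 bar per gene and library, the EC-Cx43-KO library above the control library in each pair. Cxcl1 and Cxcl5 are filled by fibroblast-like cells (81.8% to 89.4%), Cxcr2 by neutrophil-like cells (97.1% in both libraries), and Cxcl2 and Cxcl3 are divided between the monocyte/macrophage-like, Fabp5/Hmox1-led and neutrophil-like cells.

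Over whole libraries, Cxcl2 was the member that differed most between the libraries. It had 90697 UMIs (1928 CPM) in the EC-Cx43-KO and 50609 UMIs (1178 CPM) in the control library. Cxcl3 had 48778 UMIs (1037 CPM) and 39114 UMIs (910.5 CPM), and Cxcl1 22827 UMIs (485.3 CPM) and 21325 UMIs (496.4 CPM). Cxcl5 had 8365 UMIs (177.8 CPM) in the EC-Cx43-KO and 9796 UMIs (228.0 CPM) in the control library, and Cxcr2 2672 UMIs (56.8 CPM) and 2883 UMIs (67.1 CPM). The 4 ligands together made up 19207 CPM of neutrophil-like RNA in the EC-Cx43-KO and 11789 CPM in the control library, more than in any other class. They made up 5850 CPM and 3915 CPM of the Fabp5/Hmox1-led cluster, and 5055 CPM and 3741 CPM of the RNA of monocyte/macrophage-like cells. The sums were 1919 and 2068 CPM for fibroblast-like and 252.3 and 250.7 CPM for EC-like cells. In B-cell-like cells, which are not known as a source and serve as the background of free RNA, they made up 161.4 and 153.0 CPM. This background is not even across genes, as EC markers in B-cell-like cells stood at 58.2% and 48.9% of their level over the whole library.

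Between the libraries, a gene was called higher or lower in a class when its CPM differed by at least 1.5-fold, and only where it had at least 20 UMIs over both libraries. In the 9 classes with at least 100 cells in each library, 36 pairs of a member and a class had enough UMIs, of which 7 were higher and 5 lower in the EC-Cx43-KO library. Cxcl2 made up 4 of the 7 higher pairs, those in neutrophil-like, monocyte/macrophage-like and dendritic-like cells and in the Fabp5/Hmox1-led cluster. The other 3 were Cxcl1 and Cxcr2 in the Fabp5/Hmox1-led cluster and Cxcl5 in SMC-like cells. The 5 lower pairs were Cxcr2 in fibroblast-like and dendritic-like cells, Cxcl1 in dendritic-like cells, and Cxcl2 and Cxcl3 in T/NK-like cells. Each is set below against the share of all genes of the same class that passed the same limit, which is the background of such calls. In the classes with no call in a direction these shares were 6.49% higher in fibroblast-like cells, 4.64% lower in SMC-like cells, 6.15% lower in the Fabp5/Hmox1-led cluster and 10.5% higher in T/NK-like cells. They were 5.13% higher and 5.89% lower in EC-like cells, and 9.52% higher and 13.6% lower in B-cell-like cells, where no member was called. Leaving out, in each library, the cell with most UMIs of the member (a check chosen after seeing the data) kept all 12 calls.

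**Figure D2:**
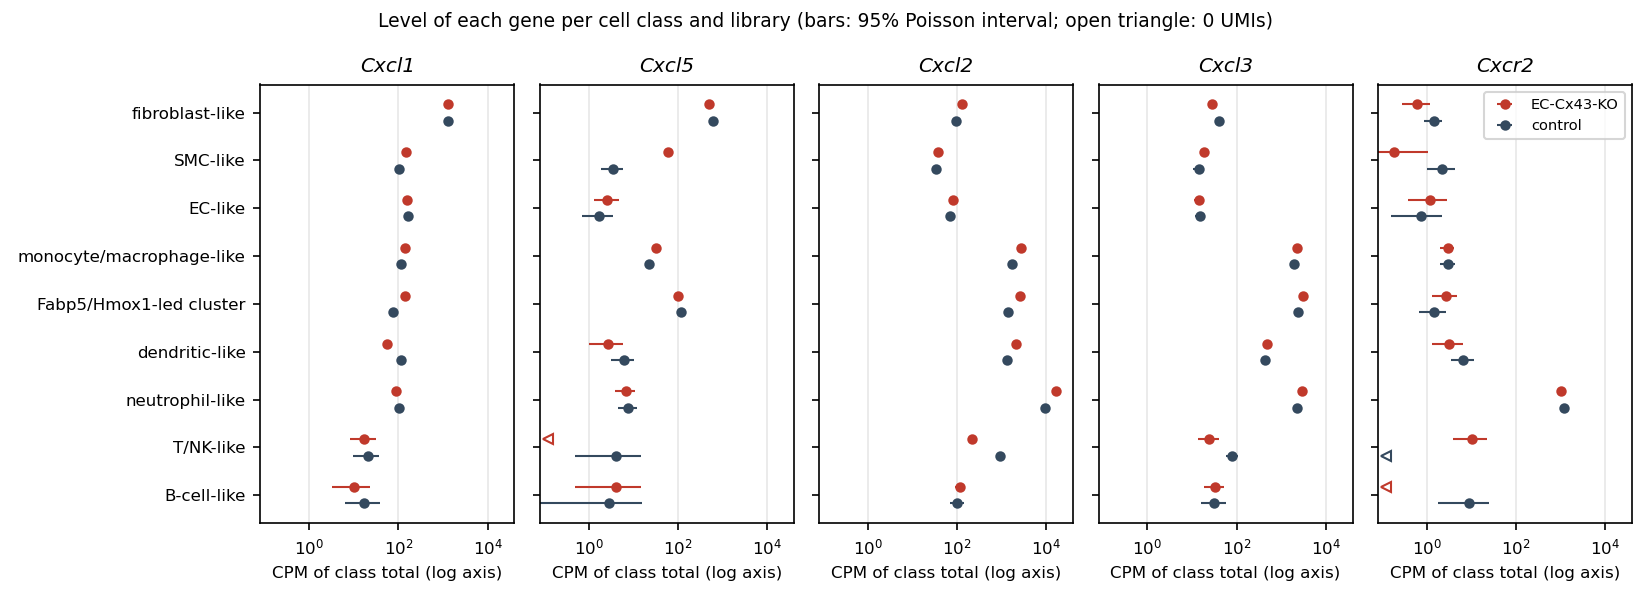
Level of each gene (CPM of the class total, log axis) in 9 cell classes, with the EC-Cx43-KO library above the control library in each row, bars for the exact 95% Poisson interval and open triangles for 0 UMIs. Cxcl1 and Cxcl5 peak in fibroblast-like cells, Cxcl2 in neutrophil-like cells (16237 CPM in the EC-Cx43-KO and 9366 CPM in the control library), and Cxcr2 stands far above all other classes in neutrophil-like cells.

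Cxcl1, the mouse chemokine also known as KC, was a fibroblast product in these arteries and was almost equal in the 2 libraries. Fibroblast-like cells had 1275 CPM (1256 to 1293; 18681 UMIs) in the EC-Cx43-KO and 1305 CPM (1286 to 1324; 18215 UMIs) in the control library. The log2 ratio of EC-Cx43-KO over control was -0.03 (-0.06 to -0.00), and it was 0.04 when the libraries were scaled by the median of ratios over genes, so that no direction can be given. After every cell was thinned to 1000 UMIs, 44.6% (42.0% to 47.2%) of fibroblast-like cells in the EC-Cx43-KO and 49.4% (46.6% to 52.2%) in the control library had a Cxcl1 UMI, with 139 shallower cells left out in each. The unthinned shares were 66.8% and 68.4%. The same share in B-cell-like cells was 0.658% and 2.15%, at median depths of 2511 UMIs in the EC-Cx43-KO and 3114 UMIs in the control library, against 6237 and 6913 in fibroblast-like cells.

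No other class with at least 100 cells in each library passed 165.1 CPM of Cxcl1. In order of the EC-Cx43-KO level came EC-like cells, the SMC-like cells, the Fabp5/Hmox1-led cluster, and monocyte/macrophage-like, neutrophil-like and dendritic-like cells. EC-like cells had 155.0 CPM (143.3 to 167.3) in the EC-Cx43-KO and 165.1 CPM (152.8 to 178.1) in the control library, a log2 ratio of -0.09 (-0.25 to 0.07). Their counting intervals overlapped between the libraries. By sex, the log2 ratio was 0.04 (-0.23 to 0.30; 130.7 and 127.3 CPM) in cells with Xist UMIs only and -0.58 (-0.82 to -0.35; 184.9 CPM in the EC-Cx43-KO and 276.8 CPM in the control library) in cells with Y-linked UMIs only, and the difference of these ratios was not tested. The class level was above the 10.1 and 17.3 CPM of B-cell-like cells (5 and 6 UMIs), and 11.8% of EC-like cells in the EC-Cx43-KO and 10.6% in the control library had a Cxcl1 UMI after thinning. SMC-like cells had 146.1 and 103.3 CPM, but 1 cell carried 16.7% of these UMIs in the EC-Cx43-KO and 20.6% in the control library. Subcluster SMC 4, led by the fibroblast markers Lum and Dcn, held 263 of their 777 Cxcl1 UMIs in the EC-Cx43-KO and 212 of 418 in the control library (325.5 and 354.1 CPM). SMC 1, the subcluster with most cells, had 34.5 and 34.3 CPM. Monocyte/macrophage-like cells had 137.5 CPM in the EC-Cx43-KO and 116.5 CPM in the control library, and neutrophil-like cells 88.2 and 100.3 CPM. In the EC-Cx43-KO library the intervals of EC-like and SMC-like cells overlapped, as did those of the SMC-like cells, the Fabp5/Hmox1-led cluster and monocyte/macrophage-like cells.

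Cxcl1 differed by 1.5-fold or more in 2 classes that contribute little of it. The Fabp5/Hmox1-led cluster had 139.6 CPM (576 UMIs) in the EC-Cx43-KO and 76.2 CPM (472 UMIs) in the control library, a log2 ratio of 0.87 (0.69 to 1.05). In that cluster 4.08% of all genes were higher by the same limit. The direction was not the same by sex, with 182.9 and 70.7 CPM (1.37) in cells with Xist UMIs only and 65.2 and 78.9 CPM (-0.28, -0.76 to 0.22) in cells with Y-linked UMIs only. Dendritic-like cells had 56.2 CPM (123 UMIs) in the EC-Cx43-KO and 115.2 CPM (228 UMIs) in the control library, a log2 ratio of -1.04 (-1.36 to -0.71), where 12.3% of all genes were lower. There 5 cells carried 69.1% of the UMIs in the EC-Cx43-KO and 74.1% in the control library.

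Cxcl5, the chemokine also known as LIX, came from fewer fibroblast-like cells and was lower in the EC-Cx43-KO library without reaching 1.5-fold. Fibroblast-like cells had 490.7 CPM (479.4 to 502.2; 7192 UMIs) in the EC-Cx43-KO and 627.5 CPM (614.5 to 640.8; 8759 UMIs) in the control library, a log2 ratio of -0.35 (-0.40 to -0.31). A Cxcl5 UMI was present in 9.56% (8.09% to 11.2%) of thinned fibroblast-like cells in the EC-Cx43-KO and 12.7% (10.9% to 14.7%) in the control library. The unthinned shares were 19.2% and 22.8%, against 1.20% and 1.00% in B-cell-like cells. The 5 cells with most UMIs carried 18.2% of the Cxcl5 of the class in the EC-Cx43-KO and 23.1% in the control library. The direction was not the same in cells of the 2 sexes. In cells with Xist and no Y-linked UMIs, Cxcl5 was at 755.2 CPM in the EC-Cx43-KO and 982.0 CPM in the control library, a log2 ratio of -0.38. In cells with Y-linked and no Xist UMIs it was at 283.7 and 136.6 CPM, a log2 ratio of 1.05. The pooled value thus sums a higher and a lower part, and the part of the sex mix in it was not tested.

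Outside fibroblast-like cells, Cxcl5 reached 100.5 CPM in the EC-Cx43-KO and 118.9 CPM in the control library in the Fabp5/Hmox1-led cluster, while monocyte/macrophage-like cells stood at 32.2 CPM in the EC-Cx43-KO and 22.9 CPM in the control library. In SMC-like cells it had 325 UMIs (61.1 CPM) in the EC-Cx43-KO and 14 UMIs (3.46 CPM) in the control library, a log2 ratio of 4.14 (3.37 to 5.03), where 5.55% of all genes were higher. Of the 325 UMIs, 58.8% came from 1 cell and 95.1% from 5 cells. EC-like cells had 2.61 CPM (11 UMIs) and 1.74 CPM (7 UMIs), within the interval of B-cell-like cells (2 UMIs in the EC-Cx43-KO and 1 in the control library).

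Fibroblast-like cells were not uniform, and Cxcl5 varied among their subclusters far more than Cxcl1 did. Among the 8 subclusters with at least 100 cells over both libraries and no leukocyte or interferon genes in the lead, Cxcl1 ran in the EC-Cx43-KO library between 573.7 CPM in fibroblast 7 (led by Mfap4 and Cst3) and 1842 CPM in fibroblast 1 (led by Saa3 and Sfrp4). In the control library these subclusters had 914.1 and 1676 CPM. Cxcl5 ran between 5.74 and 1208 CPM over the same subclusters of the EC-Cx43-KO library. Its highest levels were in fibroblast 10, led by the cell division gene Top2a, with 1208 CPM in the EC-Cx43-KO and 1060 CPM in the control library, and in fibroblast 5, led by the activin subunit gene Inhba, with 1110 and 1082 CPM. Fibroblast 1 had 731.9 CPM of Cxcl5 in the EC-Cx43-KO and 1088 CPM in the control library. Fibroblast 3, led by Cxcl13 and Pcsk6, had 80.3 and 247.6 CPM, while fibroblast 2, led by Pex5l and Fmo2, had 7.10 and 29.6 CPM. The lower Cxcl5 of the EC-Cx43-KO library was thus in the subclusters 1, 2 and 3, and also in fibroblast 8, a shallow subcluster led by leukocyte genes (302.6 and 756.3 CPM). The intervals overlapped in fibroblast 4, 5 and 6, and fibroblast 10 was higher in the EC-Cx43-KO library, though by less than 1.5-fold. In the first clustering Cxcl5 was below 0 on the log2 scale in all 5 fibroblast-like clusters, between -1.54 and -0.25. Of 9 subclusters with at least 40 cells in each library, Cxcl1 was above 0 on the log2 scale in 4 and below in 5. Cxcl5 was found more often in cells that also had Cxcl1, though most cells with either had 1 of the 2. After thinning, 14.6% of fibroblast-like cells with a Cxcl1 UMI and 5.5% of those without one had a Cxcl5 UMI in the EC-Cx43-KO library, against 19.0% and 6.57% in the control library. A subcluster led by interferon-induced genes, fibroblast 9, held 96 cells in the EC-Cx43-KO and 12 in the control library, with Cxcl1 at 445.4 and 409.4 CPM.

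**Figure D3:**
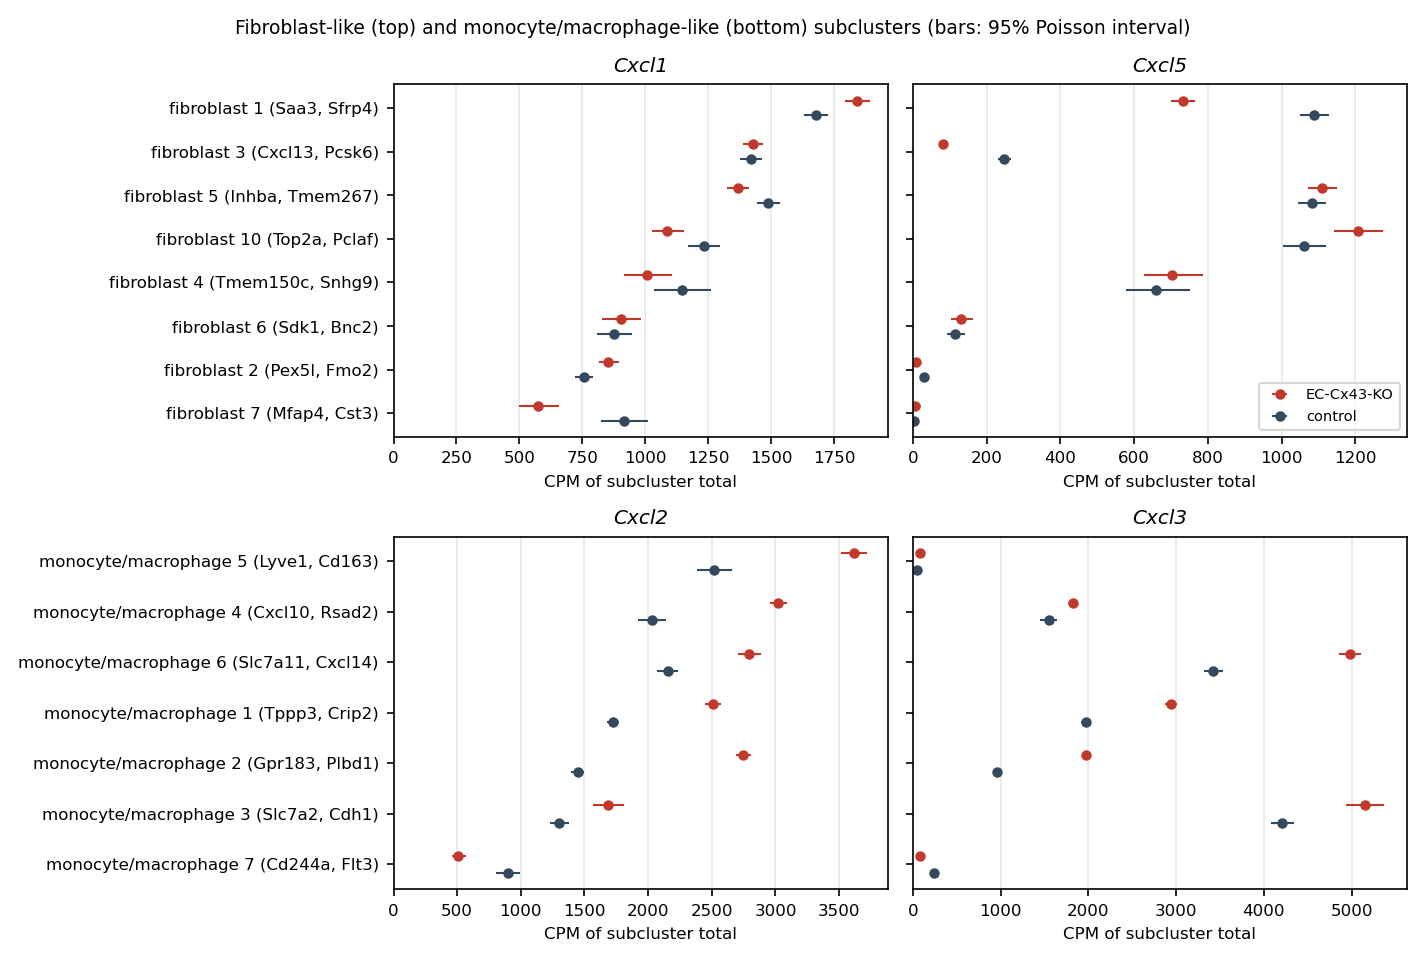
Level (CPM of the subcluster total, linear axes from 0) of Cxcl1 and Cxcl5 in fibroblast-like subclusters (top) and of Cxcl2 and Cxcl3 in monocyte/macrophage-like subclusters (bottom), the EC-Cx43-KO library above the control library, with exact 95% Poisson intervals. Cxcl5 spans 5.74 to 1208 CPM among fibroblast subclusters of the EC-Cx43-KO library, and Cxcl2 is higher in the EC-Cx43-KO library in all the monocyte/macrophage subclusters drawn except number 7.

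Cxcl2, the chemokine also known as MIP-2, was highest in neutrophil-like cells and was the only ligand past the 1.5-fold limit in its leading class. Neutrophil-like cells had 16237 CPM (16079 to 16396; 40323 UMIs) in the EC-Cx43-KO and 9366 CPM (9242 to 9491; 21747 UMIs) in the control library, a 1.73-fold difference with a log2 ratio of 0.79 (0.77 to 0.82). In these cells 8.34% of all genes were higher by the 1.5-fold limit, and 2.78% (24 of 863) among genes with at least 1000 UMIs. After thinning, 90.9% (88.8% to 92.7%) of neutrophil-like cells in the EC-Cx43-KO and 85.9% (83.3% to 88.3%) in the control library had a Cxcl2 UMI, with 383 and 293 shallower cells left out. The unthinned shares were 89.6% and 85.8%. Most neutrophil-like cells thus carried Cxcl2 in both libraries, and at shares this close to the maximum a difference in amount can hardly show. Sex could be assigned to a minority of the 1284 EC-Cx43-KO and 1097 control cells, and among those the size of the difference was unequal. In cells with Xist UMIs only (155 EC-Cx43-KO and 153 control cells), Cxcl2 was at 18068 CPM in the EC-Cx43-KO and 13355 CPM in the control library (log2 ratio 0.44). In cells with Y-linked UMIs only (170 and 101 cells) it was at 12626 and 4106 CPM (log2 ratio 1.62). The difference of these ratios was not tested.

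Other myeloid cells showed the same direction at lower levels. Monocyte/macrophage-like cells had 2657 CPM of Cxcl2 in the EC-Cx43-KO and 1682 CPM in the control library, a log2 ratio of 0.66 (0.63 to 0.69), where 9.01% of all genes were higher, and 2.77% of those with at least 1000 UMIs. The Fabp5/Hmox1-led cluster had 2581 and 1376 CPM, a log2 ratio of 0.91 (0.87 to 0.95), where 4.08% of all genes were higher, and 0.342% (7 of 2045) of those with at least 1000 UMIs. Dendritic-like cells had 2059 CPM in the EC-Cx43-KO and 1330 CPM in the control library, a log2 ratio of 0.63 (0.56 to 0.70), where 5.79% of all genes were higher, and 2.39% of those with at least 1000 UMIs. Red cell markers (6 genes) summed to 2866 CPM in dendritic-like cells of the EC-Cx43-KO and 14.7 CPM in those of the control library, with 1 and 0 of them in at least 10% of cells, and their part in the result was not tested. The median log2 ratio that the median-of-ratios scaling removes was -0.116 in dendritic-like cells, the only class where it passed 0.1 in size.

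Structural cells held little Cxcl2. Fibroblast-like cells had 125.6 CPM in the EC-Cx43-KO and 95.9 CPM in the control library, EC-like cells 80.2 and 68.7 CPM, and SMC-like cells 37.6 and 33.6 CPM. B-cell-like cells had 115.0 CPM (87.1 to 149.0) and 101.0 CPM (70.4 to 140.5), and 11.8% of them had a Cxcl2 UMI after thinning in both libraries, against 8.48% and 5.42% of EC-like cells. The Cxcl2 levels of EC-like and SMC-like cells were thus not above those of B-cell-like cells. Free RNA of neutrophils was also less in EC-like cells, where neutrophil markers stood at 3.16% and 3.07% of the library profile, than in B-cell-like cells, where they stood at 8.76% and 6.39%. Whether EC-like cells express some Cxcl2 is therefore not settled by these counts. T/NK-like cells had 215.1 CPM (124 UMIs) in the EC-Cx43-KO and 917.5 CPM (450 UMIs) in the control library, a log2 ratio of -2.09, where 12.4% of all genes were lower. In the control library 46.9% of these UMIs came from 1 cell and 94.9% from 5 cells. Most lay in 1 small T/NK-like cluster, led by St6galnac3 and Il23r, with 20 EC-Cx43-KO and 11 control cells. It held 99 UMIs (899.2 CPM) in the EC-Cx43-KO and 424 UMIs (6530 CPM) in the control library. The larger T/NK-like cluster had 53.6 and 61.1 CPM, a log2 ratio of -0.19 (-1.04 to 0.66). Cxcl3 in T/NK-like cells, with 14 and 39 UMIs, had a log2 ratio of -1.71.

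Among neutrophil-like cells the level of Cxcl2 differed widely between subclusters, and the 2 subclusters with most Cxcl2 had the least Cxcr2. Neutrophil 4, led by P2rx7, an ATP-gated channel, and Hsp90aa1, a heat shock protein, had 57970 CPM of Cxcl2 in the EC-Cx43-KO and 35447 CPM in the control library. Its Cxcr2 was at 278.7 and 380.9 CPM. Neutrophil 3, led by Eya3 and Prdx1, had 22236 and 14384 CPM of Cxcl2, with Cxcr2 at 285.4 and 286.2 CPM. At the other end, neutrophil 7, led by the granule protein genes Ngp and Camp of young neutrophils, had 2653 CPM of Cxcl2 in the EC-Cx43-KO and 2196 CPM in the control library. Its Cxcr2 was at 1873 and 1642 CPM. Neutrophil 5, led by Csta2 and Stfa1, had 12412 and 6143 CPM of Cxcl2, with Cxcr2 at 1630 and 1882 CPM. Neutrophil 6, led by the interferon-induced genes Ifit1 and Rsad2, held 125 cells in the EC-Cx43-KO and 48 in the control library, with Cxcl2 at 14078 and 6875 CPM. Neutrophil 1, with 447 and 372 cells (34.8% and 33.9% of the class), was shallow, with a median of 861 UMIs. It was led by the immunoglobulin genes Igkc and Igha, with Cxcl2 at 4621 and 2971 CPM and Cxcr2 at 1005 and 1158 CPM. Cxcl2 was above 0 on the log2 scale in 7 of 7 subclusters with at least 40 cells in each library, between 0.27 and 1.03. In the 4 neutrophil-like clusters of the first clustering it was 0.55, 0.54, 0.69 and -0.10 (the last with 48 EC-Cx43-KO and 46 control cells and an interval of -0.31 to 0.11), each under the class value of 0.79. The makeup of the class differed between the libraries. Neutrophil 2, with 11481 and 8336 CPM of Cxcl2, held 254 EC-Cx43-KO and 382 control cells (19.8% and 34.8% of the class), and neutrophil 3 held 164 and 84 (12.8% and 7.66%). The part of this makeup in the class value was not tested. Within cells, after thinning, Cxcr2 was found in 49.3% of neutrophil-like cells with a Cxcl2 UMI and 69.5% of those without one in the EC-Cx43-KO library, against 59.5% and 63.7% in the control library.

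**Figure D4:**
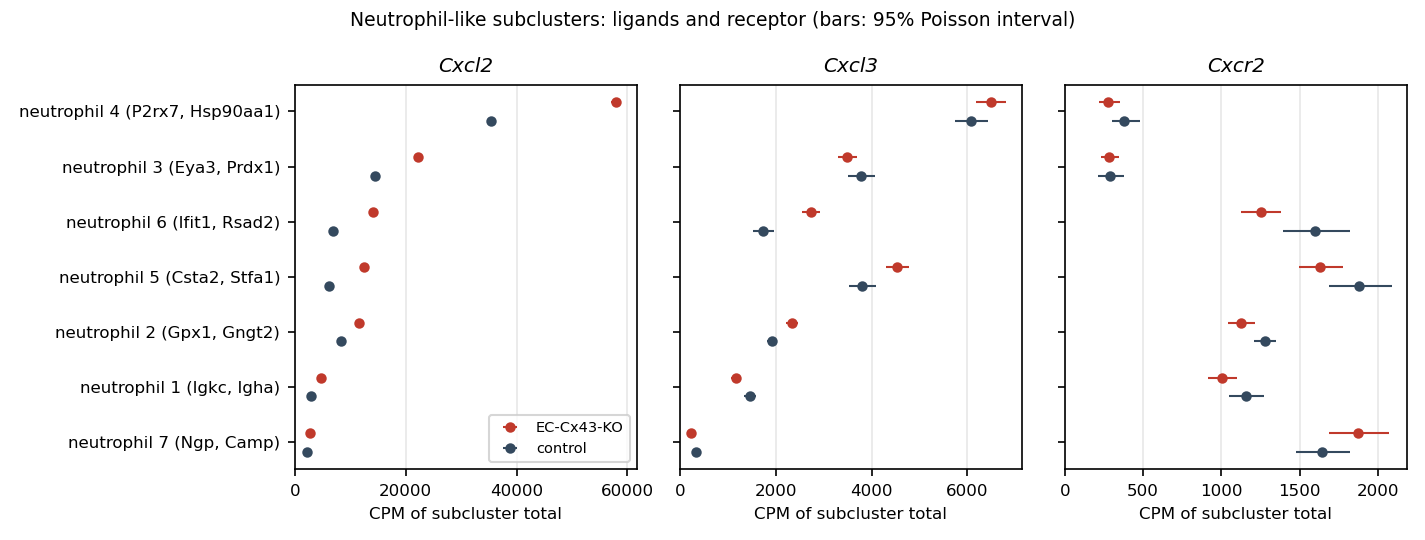
Level of Cxcl2, Cxcl3 and Cxcr2 (CPM of the subcluster total, linear axes from 0) in neutrophil-like subclusters, ordered by Cxcl2, the EC-Cx43-KO library above the control library, with exact 95% Poisson intervals. Neutrophil 4 has the highest Cxcl2 and Cxcl3 (57970 and 6486 CPM in the EC-Cx43-KO library) and low Cxcr2 (278.7 CPM), and neutrophil 7 the lowest Cxcl2 (2653 CPM) with high Cxcr2 (1873 CPM).

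Cxcl3, the closest relative of Cxcl2 in sequence among the 4, had most of its UMIs in monocyte/macrophage-like cells among the named classes, with a smaller difference between the libraries. By level, neutrophil-like cells and the Fabp5/Hmox1-led cluster stood above monocyte/macrophage-like cells in both libraries. Monocyte/macrophage-like cells had 2228 CPM (2201 to 2255; 26834 UMIs) in the EC-Cx43-KO and 1920 CPM (1891 to 1949; 16919 UMIs) in the control library, a log2 ratio of 0.21 (0.19 to 0.24). The share of thinned cells with a UMI went the other way, 48.6% (46.3% to 51.0%) in the EC-Cx43-KO and 52.6% (50% to 55.3%) in the control library, and the mean of single-cell CPM gave a log2 ratio of -0.02, so that no order of the libraries is read from this class. The Fabp5/Hmox1-led cluster had 3029 CPM in the EC-Cx43-KO and 2343 CPM in the control library (log2 ratio 0.37, 0.34 to 0.40), and neutrophil-like cells 2875 and 2315 CPM (0.31, 0.26 to 0.36). Dendritic-like cells had 479.5 and 429.1 CPM. Fibroblast-like cells had 28.2 and 39.3 CPM, EC-like cells 14.5 and 15.2 CPM and SMC-like cells 19.0 and 14.1 CPM, against 32.3 and 31.8 CPM in B-cell-like cells. In EC-like cells the level was under that of B-cell-like cells, which hold more free RNA of neutrophils. Among the minority of neutrophil-like cells with a sex assigned, Cxcl3 also differed by sex. It was at 2414 CPM in the EC-Cx43-KO and 3229 CPM in the control library in cells with Xist UMIs only (log2 ratio -0.42), and at 1926 and 903.7 CPM in cells with Y-linked UMIs only (log2 ratio 1.09).

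Cxcl2 and Cxcl3 were not made in one ratio by all macrophages. Monocyte/macrophage 5, led by the resident macrophage genes Lyve1 and Cd163, had the highest Cxcl2 of the subclusters with at least 40 cells in each library, 3615 CPM in the EC-Cx43-KO and 2519 CPM in the control library, but only 82.3 and 49.8 CPM of Cxcl3. Among the same subclusters it also had most Cxcl1, at 688.2 and 705.4 CPM. Monocyte/macrophage 3, led by Slc7a2 and Cdh1, was the reverse, with 1685 and 1303 CPM of Cxcl2 and 5151 and 4212 CPM of Cxcl3. Monocyte/macrophage 6, led by Slc7a11 and Cxcl14, had 2793 and 2154 CPM of Cxcl2 with 4979 and 3426 CPM of Cxcl3. Of the 7 subclusters with at least 40 cells in each library, Cxcl2 and Cxcl3 were each above 0 on the log2 scale in 6. The exception for both was monocyte/macrophage 7, led by Cd244a and Flt3, with Cxcl2 at 509.4 CPM in the EC-Cx43-KO and 895.5 CPM in the control library. By the 1.5-fold limit, Cxcl2 was higher in 1 of the 7 and lower in 1, between -0.81 and 0.92. Cxcl3 was higher in 2 and lower in 1. The makeup of the class differed between the libraries. Monocyte/macrophage 3 held 151 EC-Cx43-KO and 362 control cells, monocyte/macrophage 5 held 256 and 97, and the interferon-led monocyte/macrophage 4 (Cxcl10 and Rsad2) held 343 and 77. In that interferon-led subcluster Cxcl2 was at 3021 and 2029 CPM and Cxcl3 at 1823 and 1546 CPM. The part of this makeup in the class values was not tested.

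Cxcr2, the receptor, was at 1045 CPM (1005 to 1086; 2595 UMIs) in neutrophil-like cells of the EC-Cx43-KO and 1205 CPM (1161 to 1250; 2798 UMIs) in those of the control library. The log2 ratio was -0.21 (-0.28 to -0.13), under the 1.5-fold limit. A Cxcr2 UMI was present in 51.2% (47.8% to 54.5%) of thinned neutrophil-like cells in the EC-Cx43-KO and 60.1% (56.6% to 63.5%) in the control library, and the unthinned shares were 57.0% and 68.1%. Of 7 subclusters, Cxcr2 was above 0 on the log2 scale in 1, neutrophil 7, below in 5 and at -0.00 in neutrophil 3, with a range of -0.45 to 0.19. In cells with Y-linked UMIs only (170 EC-Cx43-KO and 101 control cells) the log2 ratio was 0.01, and in cells with Xist UMIs only (155 and 153 cells) -0.16. Median depths were 1647 UMIs in the EC-Cx43-KO and 1824 UMIs in the control library.

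No other class with at least 100 cells in each library carried Cxcr2 at a level that could be told from free RNA of neutrophils. Monocyte/macrophage-like cells had 2.91 and 2.95 CPM (35 and 26 UMIs), and T/NK-like cells 6 UMIs (10.4 CPM) in the EC-Cx43-KO and 0 in the control library. EC-like cells had 1.19 CPM (5 UMIs) in the EC-Cx43-KO and 0.747 CPM (3 UMIs) in the control library, all from at most 5 cells. B-cell-like cells had 0 UMIs in the EC-Cx43-KO library, which allows up to 6.05 CPM at 3 UMIs, and 3 UMIs (8.66 CPM) in the control library. Calls were made for 3 classes with few UMIs. Fibroblast-like cells had 9 and 20 UMIs (log2 ratio -1.22), where 5.22% of all genes were lower. Dendritic-like cells had 7 and 13 UMIs (-1.04), where 12.3% of all genes were lower. The Fabp5/Hmox1-led cluster had 11 and 9 UMIs (0.87), where 4.08% of all genes were higher. The interval of the ratio included 0 in dendritic-like cells and in the Fabp5/Hmox1-led cluster.

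**Figure D5:**
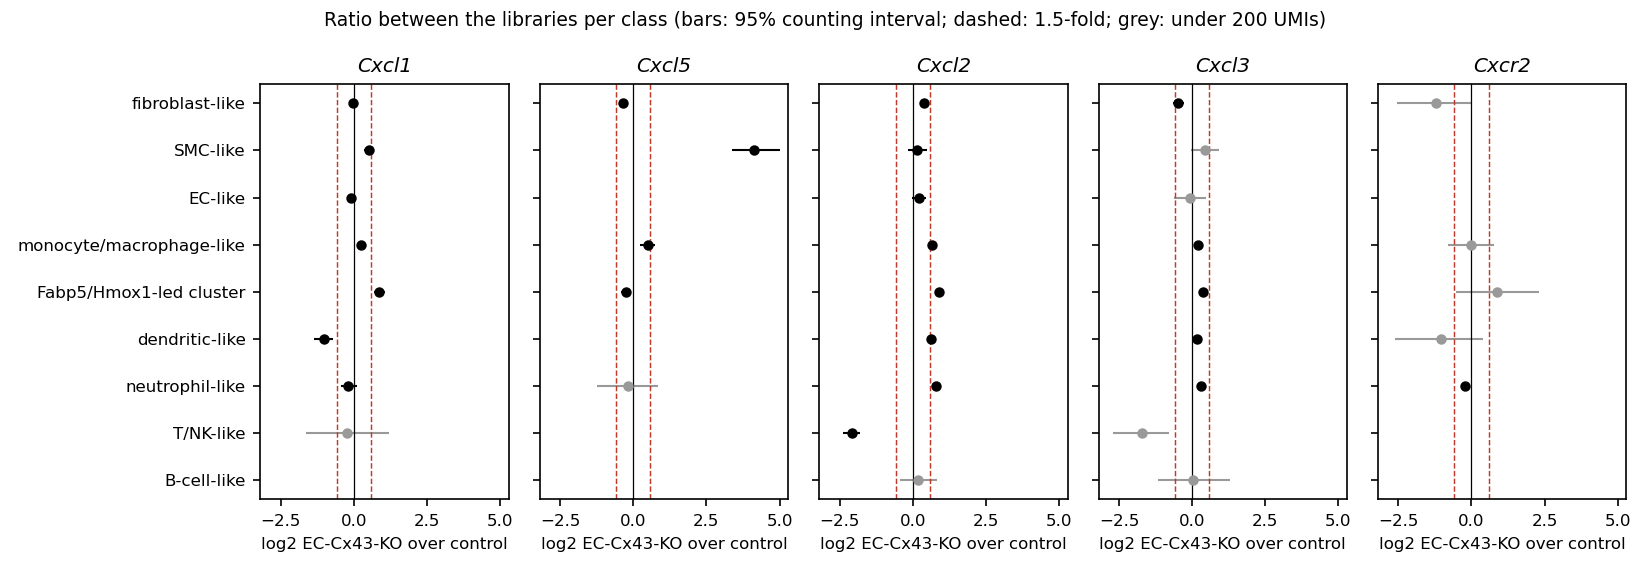
Log2 ratio of EC-Cx43-KO over control for each gene and class (horizontal axis), with exact 95% counting intervals, dashed lines at 1.5-fold and grey points where both libraries together had under 200 UMIs. Cxcl2 lies past the right dashed line in monocyte/macrophage-like (0.66), Fabp5/Hmox1-led (0.91), dendritic-like (0.63) and neutrophil-like cells (0.79), while Cxcl1 and Cxcl5 in fibroblast-like cells and Cxcr2 in neutrophil-like cells lie between the lines.

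EC-like cells were examined further because the deletion is aimed at them. Of the 5 genes only Cxcl1 was above the B-cell-like level in these cells, in both libraries and beyond the counting intervals. Its level varied among EC subclusters. EC 4, led by Acta2 and Fos, had 265.5 CPM in the EC-Cx43-KO and 155.1 CPM in the control library, EC 2 had 197.3 and 233.8 CPM, and EC 5, led by Ccnd1 and the protein C receptor gene Procr, had 110.2 and 160.8 CPM. EC 1 had 86.6 and 81.4 CPM. Of 5 subclusters with at least 40 cells in each library, 2 were above 0 and 3 below on the log2 scale, between -0.55 and 0.78. The shallow EC 3 was led by leukocyte genes, and its Cxcl2, at 341.9 and 493.8 CPM, was the highest of these 5 subclusters. The makeup of the class differed between the libraries. EC 6, led by Fabp4 and Cd36, held 47 EC-Cx43-KO and 7 control cells (8.12% and 1.46% of the class). The part of this makeup in the class values was not tested. Of 5 other CXC ligands measured in EC-like cells 3 were higher and none lower, where 5.13% of all genes were higher and 5.89% lower. They were Cxcl12 at 244.7 CPM in the EC-Cx43-KO and 131.2 CPM in the control library (0.90), Pf4 at 41.1 and 24.9 CPM, and Cxcl10 at 4.75 and 0.996 CPM (20 and 4 UMIs). B-cell-like cells had 121.0 CPM of Pf4 and 10.1 CPM of Cxcl10 (5 UMIs) in the EC-Cx43-KO, and 43.3 and 0.0 CPM in the control library. Of 14 upstream cytokine and receptor genes none was higher and 3 lower, with a median log2 ratio of 0.01 against -0.05 over all genes. One of the 3 was Csf2, which encodes GM-CSF, with 0 UMIs in the EC-Cx43-KO and 101 UMIs in the control library, all 101 from 1 cell. Cxcl12, Pf4, Cxcl10 and Csf2 were named here after their values were seen.

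Genes around this axis, in lists named in the processing notes, gave the setting of these values. In fibroblast-like cells 16 of 16 measured regulators of NF-kB and messenger RNA stability stayed within 1.5-fold, with a median log2 ratio of -0.14, against -0.07 over all genes of the class, of which 6.49% were higher and 5.22% lower. Zfp36, which destabilises AU-rich messenger RNAs, was at 1184 CPM in the EC-Cx43-KO and 1479 CPM in the control library (log2 ratio -0.32), and Nfkbiz, a co-activator of NF-kB, at 587.1 and 649.8 CPM. Among 17 upstream cytokines and receptors, 1 was higher and 2 lower, with a median of -0.08. The IL-1 receptor gene Il1r1 was at 329.2 and 318.7 CPM and the oncostatin M receptor gene Osmr at 234.9 and 256.3 CPM. Il6 was at 649.6 and 661.3 CPM, and Csf3, which encodes the neutrophil growth factor G-CSF, was at 12.8 CPM in the EC-Cx43-KO and 22.9 CPM in the control library (log2 ratio -0.84). Among 10 atypical receptors and proteoglycans 1 was higher and none lower, with a median of -0.13. Sdc4, a syndecan, was at 570.2 and 728.9 CPM, and Ackr3, a scavenging receptor of Cxcl12, at 765.9 and 798.3 CPM.

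Among the other CXC ligands Cxcl10 differed most in the classes that lead for a member. In monocyte/macrophage-like cells 4 of 7 measured were higher and none lower in the EC-Cx43-KO library, with a median log2 ratio of 0.66, against -0.06 over all genes, of which 9.01% were higher and 4.57% lower. Cxcl10, an interferon-induced ligand of Cxcr3, was at 699.4 CPM in the EC-Cx43-KO and 93.9 CPM in the control library (log2 ratio 2.90). Cxcl13, a B-cell attractant, was at 70.1 and 24.5 CPM and Cxcl14 at 30.1 and 12.7 CPM. Pf4, the neighbour of Cxcl5 and Cxcl3 on chromosome 5, was at 3268 and 2408 CPM, under the limit. Fibroblast-like cells had Cxcl10 at 35.2 CPM in the EC-Cx43-KO and 3.87 CPM in the control library (3.19), while Cxcl12, their most abundant other CXC ligand, was at 670.2 and 773.3 CPM. In that class 2 of 8 measured were higher and 1 lower, with a median of 0.17. In neutrophil-like cells Cxcl10 was at 178.0 and 37.0 CPM (2.26), and 2 of 5 measured were higher and none lower.

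In neutrophil-like cells, where 8.34% of all genes were higher, 10.8% lower and the median log2 ratio was -0.08, genes that act with the receptor were counted too. Of 19 Cxcr2 signalling genes 1 was higher and 3 lower, with a median of -0.28. Prex1, an activator of Rac, was at 70.9 CPM in the EC-Cx43-KO and 119.3 CPM in the control library (log2 ratio -0.75), and Grk6, a kinase that desensitises such receptors, at 16.1 and 25.4 CPM (-0.66). Rgs18, a regulator of G-protein signalling, was higher, at 45.9 and 29.7 CPM (0.63). Of 11 other receptors for attractants and growth factors 1 was lower, the leukotriene B4 receptor gene Ltb4r1 with 175.6 CPM in the EC-Cx43-KO and 267.9 CPM in the control library (-0.61), and none was higher. Csf3r, the G-CSF receptor, was at 1822 and 2329 CPM, and the formyl peptide receptor gene Fpr1 at 523.9 and 436.3 CPM. Of 12 adhesion genes 1 was higher and 2 lower. The higher was Vcam1, with 35 UMIs in the EC-Cx43-KO and 16 in the control library. The lower were the EC marker Pecam1, with 80 and 116 UMIs, and Selplg, the P-selectin ligand, with 568.2 and 877.3 CPM (-0.63). Of 15 upstream cytokine and receptor genes 0 passed the limit. Il1b was at 5736 CPM in the EC-Cx43-KO and 5298 CPM in the control library (0.11), Osm, which encodes oncostatin M, at 273.8 and 207.6 CPM (0.40), and the IL-17 receptor gene Il17ra at 254.9 and 377.7 CPM (-0.57). Of 10 genes of neutrophil ageing and maturity 1 was higher, the CC chemokine gene Ccl4 with 4924 and 3020 CPM (0.71). Ccl3 was at 2018 and 1361 CPM (0.57).

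The genes whose levels were most like each member's were taken over 34 cell groups in both libraries, which makes 68 points that share libraries, depths and cells. Likeness is Pearson's r of log2(CPM + 10) over 11427 genes, given as a description. For Cxcl2 they were Ccl4 (0.957), Lilr4b (0.957), Clec4d (0.953), Marcksl1 (0.949) and Rab20 (0.948). Cxcl3 was most like Basp1 (0.961), Clec4n (0.960), Il1rn (0.947), Ptger2 (0.934) and Plin2 (0.929). For Cxcl1 the values were lower, with Gprc5b (0.868), Igf1 (0.846), Dnm1 (0.845), Ildr2 (0.843) and Dcn (0.838), and for Cxcl5 they were lower still, with Agbl3 (0.83), Gjb5 (0.83), Rdh10 (0.795), Steap1 (0.791) and Serpinb2 (0.789). Cxcr2 was most like Amer2 (0.987), Mirt2 (0.977), H2-Q10 (0.974), Mgam (0.969) and Mrgpra2b (0.969). Among the members themselves r was 0.906 for Cxcl2 and Cxcl3, 0.668 for Cxcl1 and Cxcl5, 0.646 for Cxcl2 and Cxcr2 and -0.283 for the neighbouring genes Cxcl1 and Cxcl2.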

How the data were processed

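Single-cell 3′ RNA was measured in 2 libraries, 1 per group. The authors deposited UMI counts for each gene in each barcode. They come from Cell Ranger 8.0.1, per the file headers, and the submitters' processing notes also name STAR and mm10. The smallest barcode held 501 UMIs, so cells were called before deposit.

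A cell had to have at least 300 genes and no more than 15% of UMIs from mitochondria (255 EC-Cx43-KO and 224 control barcodes had too few genes, 348 and 335 too much mitochondrial RNA). Doublets were ranked by the share of simulated doublets among neighbours, and an assumed rate of 0.008 per 1000 cells set the number removed, 476 (6.17%) and 363 (5.39%). Clusters came from 2000 variable genes without the 5 genes and Gja1, 30 components, 20 neighbours and Leiden resolution 1.0, and subclusters from resolution 0.6. A cluster was called X-like from marker lists with at least 3 detected markers, unless other types' markers prevailed among its 10 leading genes or it was shallow (median UMIs under 1/3 of its library's) with no own marker there. T/NK-like cells were first meant as a second background class, but 1 control cell held much of their Cxcl2, most of which lay in 1 small cluster. B-cell-like cells alone were therefore used.

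UMIs were summed per class and library, scaled to CPM and given with exact Poisson, conditional binomial (ratios) and Clopper-Pearson (shares) intervals at 95%. A gene under 3 UMIs in a library took 3 in a ratio. UMIs mark molecules of 3′ ends, so no length correction was made. Shares of cells were compared after thinning to 1000 UMIs. The lists held the other CXC ligands, other attractant receptors, atypical receptors and proteoglycans, upstream cytokines, NF-kB and messenger RNA stability regulators, Cxcr2 signalling, adhesion, and ageing genes. Named from each list were up to 4 genes with at least 50 UMIs and the largest ratios and 4 with the highest CPM, of which the text gives some. The genes most like a member had at least 200 UMIs, in cell groups of at least 50 cells per library. Subclusters were described by number and leading genes, and those named were picked after their values were seen. The members and lists were chosen with earlier results of these data known. The steps were tested on simulated data. Clustering used leidenalg 0.10.2, igraph 0.11.9 and scikit-learn 1.9.0, the statistics SciPy 1.17.1, NumPy 2.4.6 and pandas 2.3.3, and the figures matplotlib 3.10.9, all in Python 3.11.15.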

Additional observations from a re-analysis of the deposited data

Results flagged for a closer look

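In 4 pairs of a gene and a class, the ratio of EC-Cx43-KO over control had opposite signs in cells with Y-linked UMIs only and in cells with Xist UMIs only, with neither counting interval reaching 0. Pairs with opposite signs where an interval reached 0 are not counted here. The difference between the ratios was not tested, and cells of 1 library are not replicates. For Cxcl1 in fibroblast-like cells the log2 ratio was 0.26 in cells with Y-linked UMIs (1227 CPM in the EC-Cx43-KO and 1023 CPM in the control library) and -0.13 in cells with Xist UMIs (1345 and 1472 CPM). For Cxcl5 in fibroblast-like cells it was 1.05 in cells with Y-linked UMIs and -0.38 in cells with Xist UMIs. For Cxcl3 in neutrophil-like cells it was 1.09 in cells with Y-linked UMIs (170 EC-Cx43-KO and 101 control cells) and -0.42 in cells with Xist UMIs (155 and 153 cells). For Cxcl2 in T/NK-like cells it was 1.75 in cells with Y-linked UMIs (53 UMIs in the EC-Cx43-KO and 10 in the control library) and -3.04 in cells with Xist UMIs (54 and 432 UMIs).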

How the results depend on the processing

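Values are listed where they moved by more than the counting interval, and the cause was not tested. At resolution 0.5 the monocyte/macrophage-like class held 1004 EC-Cx43-KO and 444 control cells, against 1827 and 1446 in the main setting. No cluster was named Fabp5/Hmox1-led there, and 1617 and 2097 cells were unnamed. Values of monocyte/macrophage-like cells at that resolution are thus those of a smaller class. For Cxcl1 in fibroblast-like cells the log2 ratio (-0.03) was 0.03 with at least 500 genes per cell, 0.01 and 0.02 with at most 10% and 25% mitochondrial UMIs, -0.13 as a mean of single-cell CPM, 0.04 under median-of-ratios scaling, and -0.13 and 0.26 in cells with Xist and with Y-linked UMIs only. Cxcl5 there (-0.35) was -0.30 with at most 25% mitochondrial UMIs, -0.56 as a mean of single-cell CPM, -0.28 under median-of-ratios scaling and 1.05 in cells with Y-linked UMIs only. Cxcl2 in neutrophil-like cells (0.79) was 0.83 with at least 500 genes, 0.82 with at most 25% mitochondrial UMIs and at resolution 2.0, 0.76 as a mean of single-cell CPM, 0.88 under median-of-ratios scaling, 0.44 and 1.62 in cells with Xist and with Y-linked UMIs only, and 0.84 without the cell with most UMIs in each library. Cxcl3 in monocyte/macrophage-like cells (0.21) was 0.28 with at least 500 genes, 0.24 and 0.18 with at most 10% and 25% mitochondrial UMIs, 0.26 with doublets kept, 0.79 at resolution 0.5, 0.37 with the 5 genes among the clustering genes, -0.02 as a mean of single-cell CPM, 0.30 under median-of-ratios scaling, and 0.24 and 0.73 in cells with Xist and with Y-linked UMIs only. Cxcr2 in neutrophil-like cells (-0.21) was -0.12 under median-of-ratios scaling and 0.01 in cells with Y-linked UMIs only. The count of pairs higher (7) was 11 with doublets kept, 4 and 12 in cells with Xist and with Y-linked UMIs only, 1 at a 2-fold limit, and 4 with the Fabp5/Hmox1-led cluster merged into monocyte/macrophage-like cells. The count of pairs lower (5) was 2 with doublets kept, 1 in cells with Y-linked UMIs only, and 3 and 2 at minima of 50 and 100 UMIs. Of the 12 called ratios, 3 changed sign: Cxcr2 in the Fabp5/Hmox1-led cluster was -0.09 with at least 500 genes, and in cells with Y-linked UMIs only Cxcl1 there was -0.28 and Cxcl2 in T/NK-like cells 1.75. Merging that cluster and leaving out the top cell were chosen after seeing the data. No other alternative changed the sign of a called ratio that it still measured, but 8 of 12 stayed past 1.5-fold with doublets kept and 8 of 12 as a mean of single-cell CPM.

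The share of Cxcl1 UMIs in fibroblast-like cells was 82.5% in the EC-Cx43-KO library with at least 500 genes, 86.1% in the control library with at most 10% mitochondrial UMIs, 81.0% and 84.3% (EC-Cx43-KO and control) with doublets kept, 84.7% in the control library at resolution 2.0 and 86.0% in it with the 5 genes in the clustering, and 84.1% and 88.3% after free RNA was subtracted. Free RNA was estimated at medians of 4.23% and 5.16%, which were subtracted from every class alike, though the values under these medians varied widely. EC markers stood at 58.2% and 48.9% of the library profile in B-cell-like cells, and at 33.7% and 32.8% in T/NK-like cells. The share of Cxcl5 UMIs in fibroblast-like cells was 87.2% in the EC-Cx43-KO library with at least 500 genes, 84.7% and 88.6% with doublets kept, 85% and 87.8% at resolution 2.0, 90.2% in the control library with the 5 genes in the clustering, and 88.0% and 91.5% without free RNA. That of Cxcl2 in neutrophil-like cells was 43.0% and 41.2% with at least 500 genes, 44.9% in the EC-Cx43-KO library with at most 10% mitochondrial UMIs, 41.8% and 39.8% with doublets kept, 43.8% and 42.4% at resolution 2.0, and 46.1% and 44.9% without free RNA. That of Cxcl3 in monocyte/macrophage-like cells was 51.3% and 37.5% with at least 500 genes, 57.9% and 48.4% with at most 10% and 56.9% and 49.7% with at most 25% mitochondrial UMIs, 54.1% and 43.8% with doublets kept, 16.2% and 5.81% at resolution 0.5, 47.8% and 31.2% with the 5 genes in the clustering, 55.7% and 44.0% without free RNA, and 80.6% and 80.3% with the Fabp5/Hmox1-led cluster merged in. That of Cxcr2 in neutrophil-like cells was 94.0% and 94.1% with doublets kept, 87.9% and 90.2% at resolution 2.0, and 99.4% and 99.7% without free RNA. Thinned to 500 and 2000 UMIs, the share of cells with a UMI was 32.8% and 59.3% (EC-Cx43-KO) and 35.2% and 61.2% (control) for Cxcl1, 78.4% and 95.7%, and 71.6% and 92.6% for Cxcl2, 38.8% and 56.2%, and 42.7% and 59.8% for Cxcl3, 7.26% and 13.2%, and 9.99% and 17.9% for Cxcl5, and 32.9% and 69.9%, and 38.5% and 77.3% for Cxcr2. No paired analysis was possible because each group had 1 library and no result comes from a test. Depth limits Cxcr2 outside neutrophil-like cells and all 5 genes in B-cell-like cells.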
